A study of Mus musculus with 3 samples.

Results

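In a daily time course of mouse embryonic fibroblasts undergoing reprogramming, 26 of the 50507 gene symbols in the count table, 30778 of which held a count, met a rule for gain on days 5 and 6. Counts of the 3 libraries of a day were summed and divided by their summed totals, giving CPM (counts scaled to a common library total). The mean of Day05 and Day06 had to reach 80 CPM and be at least 2 times both Day00 and the mean of Day01 to Day03, and the mean of Day01 to Day03 had to stay under 2 times Day00. A further 7 symbols met these limits but were left out because their names mark mitochondrial transcripts or numbered pseudogenes. The genes were thus chosen by their measured values on Day00 to Day03, Day05 and Day06, so these values are given as a description without a test. Day04 was not used by the rule. On Day04 25 of the 26 genes were above Day00, as were 53.8% of the 3013 genes that passed the low-count filter, and 24 were above both Day00 and the mean of Day01 to Day03, as were 36.1% of those genes. On that day 13 genes were at least 2 times Day00, 5 were at least 2 times the mean of Day01 to Day03, and 23 were below the mean of Day05 and Day06. Choosing low counts on the days before and high counts on the days after favours a Day04 value between them, so these counts are a description and nothing is read from them.

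The cells were wild-type primary mouse embryonic fibroblasts of the BL6 strain, and all of them, controls included, were transduced with the lentiviral cassette tet-STEMCCA, carrying Oct4, Sox2, Klf4 and c-Myc (OSKM), and with rtTA, its doxycycline-dependent activator. Reprogramming medium held doxycycline, chiron, which inhibits the kinase GSK3, the TGFb-inhibitor Alk5i, ascorbic acid and LIF. Day00 to Day06 are untransfected cells that were only re-plated before induction. The remaining libraries come from cells transfected before induction with siRNA pools against 1 of 33 genes, with a non-targeting siRNA (nt) or without siRNA (Mock), and were collected on day 6. The libraries are bulk CEL-Seq2, in which transcript 3′ ends are counted by unique molecular identifiers, and lentiviral delivery leaves a mixed population of converting and non-converting cells. Fewer cells of a kind and less RNA per cell cannot be told apart in such libraries. The labels name 3 replicates, which for the siRNA libraries were triplicate transfections per the study. The p-values reported measure the spread between libraries of a condition that is left after differences between the 3 sequenced pools are taken out. This spread is estimated over all conditions together. Whether the replicates came from separate fibroblast isolations is not given in the sources used here.

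Of 129 libraries, 127 were used, with 29656 to 235292 counts each and a median of 73279, and 2 libraries with 6403 and 7981 counts were left out. There were 3 libraries for nt, 3 for each of the 7 days, 3 for each siRNA and 2 for siMtf1. The 5 Mock libraries are columns of 3 replicates, with 2 columns of the same name for replicates 1 and 2, and whether those are separate transfections is not given in the sources used here. Of the 8 siRNA targets examined, those other than Hat1, described with its own comparison, and Ncor1 had at most 17 counts in any condition and could hardly check the labels. Wdr5 had 7 counts in siWdr5 and 9 in nt, Brca1 had 4 in siBrca1 and 2 in nt, and Bard1 had 0 in siBard1, which allows up to 10.1 CPM, and 2 in nt. Ncor1 had 12 in siNcor1 and 22 in nt. Pou5f1, the gene of Oct4, had 0 counts in siPou5f1, which allows up to 13.9 CPM, and 4 in nt, whereas Ep300 had 17 in siEp300 and 3 in nt. Such limits cover counting error only, and a lowering of the sparsely counted targets was not detectable at this depth. The 10 summed markers of fibroblasts, all of them counted, which check the labelled cell type, lay at 5501 to 7435 CPM on Day00 and 1593 to 2264 CPM in nt, and 6 of 7 red blood cell markers had no count in any library.

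Several of the genes belong to the machinery of RNA and protein synthesis. Nucleophosmin (Npm1) is an abundant nucleolar protein that assists ribosome assembly and histone handling, and c-Myc, a factor of the cassette, is known to raise transcription of ribosome and nucleolar genes. Processed pseudogenes are copies of mature mRNAs that were inserted elsewhere in the genome, and a read from the parent mRNA can be assigned to such a copy where the sequences match.

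By their annotation in GENCODE vM21 (GRCm38), 24 of the 26 genes comprised 16 protein-coding genes, 7 pseudogenes and 1 long non-coding RNA, Snhg20. RP24-389J11.1 and RP23-288C18.3 are not in that annotation and are named only. In a search against all annotated transcripts, 16 of the 24 had a match of at least 90% identity over at least 100 bases in another gene. For Ak3 and Skiv2l2 the matches were only to overlapping genes on the opposite strand, and for Snhg20 only to small RNAs at its own locus. The counts of the others could be shared with the matching gene. The 8 without such a match were Mt1, Ptgr1, Mgp, Uqcrq, Hat1, Col6a1, Dctd and Slc7a3. An exon overlapping another gene was annotated for 7 genes, and for Nhp2, Ak3, Mrpl12, Skiv2l2 and Rpl22l1 the overlapping gene lies on the opposite strand. For Gm15421 (Orc5) and Snhg20 (Gm26083 and Mir6516) it lies on the same strand.

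Of the 5 genes of highest level, 4 are processed pseudogenes of Npm1, and a 90-base stretch is shown to let a reader see how closely they copy it. Gm5611 lies on the plus strand at chr9:17030045-17030896, Gm17060 on the minus strand at chr6:49424061-49424884, Gm14776 on the minus strand at chrX:87771339-87772352 and Gm14681 on the minus strand at chrX:66778442-66778852. Npm1 itself lies on the minus strand at chr11:33152287-33163206. The stretch covers bases 655 to 744 of the 879-base Npm1 coding sequence, counted from the start codon, or the aligned bases of the copy. Sequences are from GENCODE vM21 transcripts, 5′ to 3′ on the sense strand, and capitals mark bases that differ from Npm1.
Npm1: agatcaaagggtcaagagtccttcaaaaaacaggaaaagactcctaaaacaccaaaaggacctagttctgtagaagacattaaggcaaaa
Gm5611: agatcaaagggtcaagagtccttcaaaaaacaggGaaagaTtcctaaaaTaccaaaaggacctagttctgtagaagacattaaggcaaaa
Gm17060: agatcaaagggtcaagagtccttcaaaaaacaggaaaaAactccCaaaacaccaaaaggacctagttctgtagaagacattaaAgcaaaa
Gm14776: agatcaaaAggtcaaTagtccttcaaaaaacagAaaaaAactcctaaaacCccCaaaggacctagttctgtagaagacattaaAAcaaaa
Gm14681: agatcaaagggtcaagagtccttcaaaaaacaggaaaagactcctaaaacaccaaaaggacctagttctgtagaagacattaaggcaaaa

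Gm5611 and Gm17060 differed from Npm1 at 3 bases of this stretch, Gm14776 at 8 and Gm14681 at 0. Over all aligned bases the identity to Npm1 was 97.8% for Gm5611, 94.4% for Gm17060, 92.1% for Gm14776 and 99.5% for Gm14681. The share of a copy's 50-base windows found unchanged in the Npm1 transcript was 30.0% for Gm5611, 4.39% for Gm17060, 0.358% for Gm14776 and 73.5% for Gm14681. A read inside a shared window cannot be told from Npm1 by sequence, and most windows of Gm14681 and nearly none of Gm14776 were of this kind. Windows shared with other pseudogenes were not counted. The annotated copies end at or just before the stop codon, at base 1103 or 1106 of the 1633-base Npm1 transcript, and so lack its 3′ untranslated region.

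The other 3 pseudogenes also copy genes of protein synthesis or redox balance. Gm15421, at chr5:22528321-22529244 on the minus strand, matched Rpl22l1, itself among the 26 genes, at 99.7% of aligned bases. Gm7204, at chr16:48218605-48219201 on the plus strand, matched the peroxide-reducing enzyme gene Prdx1 at 97.5%. Gm8292, at chr1:55335401-55335796 on the plus strand, matched the ribosomal protein gene Rps24 at 97.5%. The first 90 coding bases of Rps24 and the aligned bases of Gm8292 are shown because Gm8292 is among the genes lower in siWdr5 below, with capitals at the 2 differing bases.
Rps24: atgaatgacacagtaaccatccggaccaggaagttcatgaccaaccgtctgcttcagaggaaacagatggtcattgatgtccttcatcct
Gm8292: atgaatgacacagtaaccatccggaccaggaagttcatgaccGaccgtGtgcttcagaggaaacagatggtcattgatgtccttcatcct

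Across the 127 libraries the log2 CPM of the Npm1 copies and RP24-389J11.1 moved together. Pearson's r between pairs of these 5 genes ranged from 0.878, for Gm17060 and Gm14681, to 0.984, for Gm5611 and Gm17060. With Npm1 it ranged from 0.731 for Gm14776 to 0.791 for Gm14681. These are descriptions over libraries of all conditions, which share depth and sequence composition. RP24-389J11.1 is therefore described beside the copies by its level, without a statement on what it is.

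In the time course the 5 genes together held 1356 ± 174 CPM (SD, n = 3) on Day00, 2727 ± 1025 on Day01, 2305 ± 890 on Day02 and 1455 ± 368 on Day03. They then held 4422 ± 805 CPM on Day04, 5847 ± 630 on Day05 and 2983 ± 59.3 on Day06. The sum was thus lowest on Day00, highest on Day05 and, on Day06, between its levels of Day01 and Day04. Gm5611 had 201, 530 and 331 CPM in replicates 1 to 3 on Day00, 1490, 1747 and 1344 CPM on Day05, and 814, 961 and 753 CPM on Day06. Its Day01 library of replicate 1, at 1186 CPM, lay above all 3 Day06 libraries.

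Npm1 missed the rule narrowly, with 2901 CPM on Day05 and Day06, 3.74 times Day00 and 1.97 times the mean of Day01 to Day03. Counts of Npm1 and its 4 copies added together met it, with 6522 CPM on Day05 and Day06, 3.36 times Day00 and 2.08 times Day01 to Day03. Rpl22l1 with its copy also met it, at 208 CPM and ratios of 2.62 and 2.20. Prdx1 with Gm7204 and Rps24 with Gm8292 did not, at 1.32 and 1.80 times the mean of Day01 to Day03. With copies added to the gene they match, the rule found 20 genes or sums in place of 26.

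**Figure D1:**
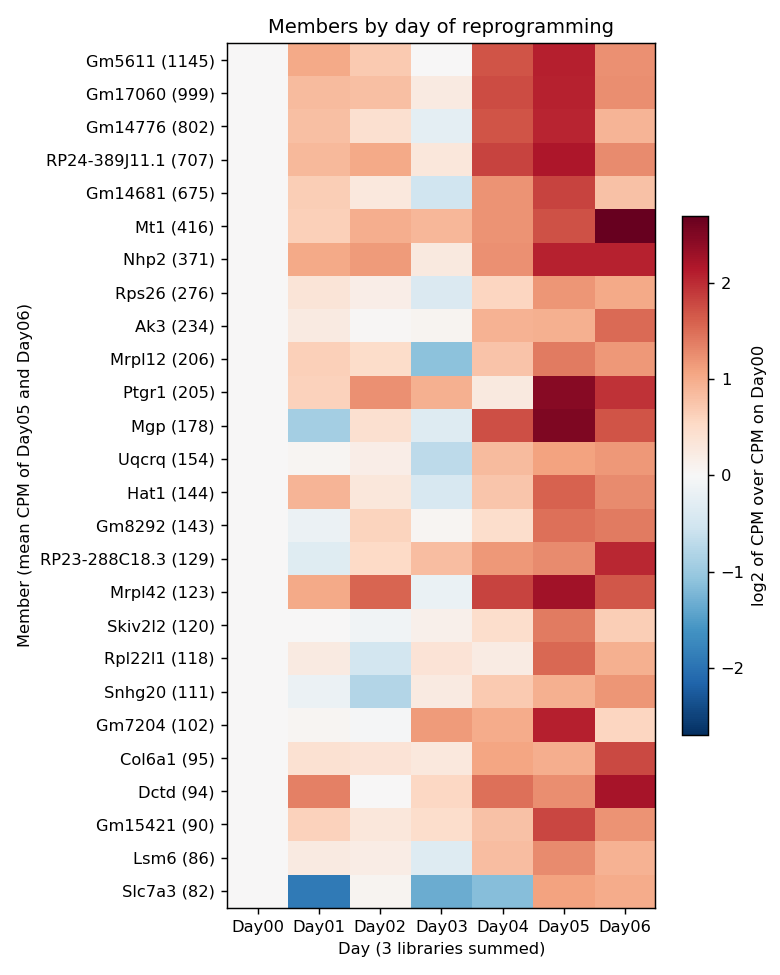
Level of each of the 26 genes by day, as log2 of the CPM of the 3 summed libraries over that of Day00 (colour), with genes in rows ordered by mean CPM of Day05 and Day06 (in brackets) and days in columns. Day00 is 0 by construction. Of the last days, Day05 is the higher for 19 genes and Day06 for 7, and on Day04 25 genes are above Day00.

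The remaining 21 genes together held 1134 ± 151 CPM (n = 3) on Day00, 1301 ± 311 on Day03, 2199 ± 162 on Day04, 3476 ± 474 on Day05 and 3412 ± 233 on Day06. Their sum was nearly the same on Day05 and Day06, unlike that of the 5 genes of highest level. Over all 26 genes the median ratio of the mean of Day05 and Day06 was 2.80 to Day00 and 2.18 to Day01 to Day03. In replicate 1 alone 11 genes were at least 2 times both references, in replicate 2 13 and in replicate 3 18. In each of the 3 replicates 24 genes were above both references, the exceptions being Skiv2l2 and Slc7a3, and 2, Mt1 and Mgp, were at least 2 times both.

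Among genes of ribosomes and RNA handling, Nhp2, a subunit of the H/ACA particles that modify ribosomal RNA and of telomerase, had 60.2, 106 and 92.2 CPM in the Day00 libraries and 271, 370 and 414 CPM in the Day06 libraries. Rps26, a protein of the small ribosomal subunit, had 128 CPM on Day00 and 276 CPM on Day05 and Day06, at 2.04 times Day01 to Day03. Rpl22l1, a paralogue of a large-subunit protein, went from 48.4 to 118 CPM and its copy Gm15421 from 30.8 to 89.9 CPM. Gm8292 went from 52.8 to 143 CPM.

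Mrpl12 and Mrpl42, proteins of the mitochondrial ribosome, went from 83.7 to 206 and from 30.8 to 123 CPM. Skiv2l2, listed as Mtrex in the newer annotation, the RNA helicase that feeds the nuclear exosome, went from 57.2 to 120 CPM. Lsm6, a ring subunit that binds U6 RNA and decaying mRNAs, went from 39.6 to 85.8 CPM, and Snhg20, a host transcript of a small nucleolar RNA, from 52.8 to 111 CPM. Most of these gains were close to the limit of the rule.

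Among metabolic genes Mt1, a metallothionein that binds zinc and copper, had the largest ratio to Day00, 4.97. Mt1 had 40.2, 21.2 and 123 CPM on Day00, 215, 332 and 275 CPM on Day05, and 603, 610 and 518 CPM on Day06. The metallothionein Mt2 gained more, with 923 CPM on Day05 and Day06, 19.1 times Day00 and 4.78 times Day01 to Day03. It missed the rule because its mean of Day01 to Day03 was already 3.99 times Day00, against 1.80 times for Mt1. Ptgr1, an enzyme that reduces prostaglandins and reactive aldehydes, had 53.2 CPM on Day04 and 241 CPM on Day05, so that its level on Day04 was below its Day01 to Day03 mean of 85.7 CPM. Its Day00 libraries of 100, 0 and 38.4 CPM differed widely.

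Uqcrq, a subunit of respiratory complex III, went from 70.4 CPM on Day00 to 154 CPM on Day05 and Day06, and Ak3, the mitochondrial adenylate kinase that uses GTP, from 96.9 to 234 CPM. Dctd, a deaminase that supplies precursors of thymidine, went from 26.4 to 93.8 CPM. Gm7204 had 150 CPM on Day05 and 52.8 CPM on Day06, below its 78.1 CPM on Day03. Slc7a3, a transporter of cationic amino acids, had 0, 0 and 69.2 CPM on Day00, 42.2, 19.4 and 0 CPM on Day04, and 75.4, 166 and 48.3 CPM on Day06. The Day00 library of replicate 3 thus lay above the Day06 library of the same replicate.

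Hat1, the acetyltransferase that marks newly made histone H4, had 20.1, 42.4 and 69.2 CPM on Day00, 143, 98.4 and 197 CPM on Day05, and 106, 203 and 110 CPM on Day06. The Day01 libraries of replicates 2 and 3, at 109 and 140 CPM, and the Day02 library of replicate 2, at 133 CPM, lay within the range of days 5 and 6. A pair of matrix genes also met the rule. Mgp, an inhibitor of calcification, had 60.2, 63.5 and 23.1 CPM on Day00, 0, 54.5 and 0 CPM on Day01, and 167, 246 and 251 CPM on Day05. Mgp had the largest ratio to Day01 to Day03, 5.06, and its 9 counts on Day00 gave an exact 95% Poisson interval of 18.1 to 75.2 CPM. Col6a1, a chain of collagen VI, went from 35.2 CPM on Day00 to 69.2 CPM on Day05 and 121 CPM on Day06. RP23-288C18.3 went from 39.6 CPM on Day00 to 162 CPM on Day06.

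Values on either side of the limits were close to each other. Just inside the level limit were Slc7a3 at 81.7, Lsm6 at 85.8 and Gm15421 at 89.9 CPM, and just outside were Fam136a at 78.7, Gmnn at 74.5 and Gm13772 at 73.8 CPM. Just inside the gain limit were Mrpl42 at 2.02 times and Gm7204 and Rps26 at 2.04 times, and just outside were Gm7424 at 2.00, Eef1akmt1 and Ndufa4 at 1.99 times. Just inside the limit on early change were Mrpl42 at 1.97, Ptgr1 at 1.95 and Nhp2 at 1.81 times Day00, and just outside were Psmb1 at 2.03, Hist1h2ap at 2.20 and Naa20 at 2.27 times. With totals scaled by TMM, which corrects totals for a few abundant genes, the same rule gave 61 genes, 25 of them among the 26. Applied without replicate 3 it gave 33 genes, of which 8 were among the 26, and without replicate 1 or 2 it gave 34 and 37 genes, of which 20 each were among the 26. Membership of single genes therefore rested in good part on replicate 3.

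The nt and Mock libraries, which the rule did not use, were set beside the untransfected Day06 libraries as levels without a test, since transfection and the time course handling cannot be told apart. The 5 genes of highest level together held 15274 ± 1290 CPM (n = 3) in nt and 12064 ± 1373 CPM in Mock with the columns of a replicate summed (n = 3), against 2983 ± 59.3 CPM (n = 3) on Day06. The other 21 genes together held 3558 ± 651 CPM in nt, 3369 ± 115 CPM in Mock and 3412 ± 233 CPM on Day06. The sum of the 5 genes did not overlap between Day06 and the transfected controls, while the sum of the other genes did, although single genes among them lay apart in either direction.

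Taken gene by gene, 6 of 26 were at least 2 times higher in mean CPM in nt than on Day06, where 7.97% of the 3013 genes tested were, and 3 were at least 2 times lower, where 24.1% were. Those higher were Gm14776 at 5.58, Gm14681 at 5.53, Gm5611 at 5.19, Gm17060 at 4.99, RP24-389J11.1 at 4.38 and Gm7204 at 2.04 times. Those lower were Dctd at 0.25, Col6a1 at 0.466 and RP23-288C18.3 at 0.491 times. In Mock 9 genes were at least 2 times higher, where 9.43% of the genes tested were, and 3 were lower, where 27.4% were. The added genes were Rpl22l1 at 2.29 times, Mrpl42 at 2.16 times and Snhg20, which had 276 ± 20.6 CPM in Mock with the columns of a replicate summed (n = 3). Npm1 itself was 2.51 times higher in nt and 2.34 times higher in Mock.

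**Figure D2:**
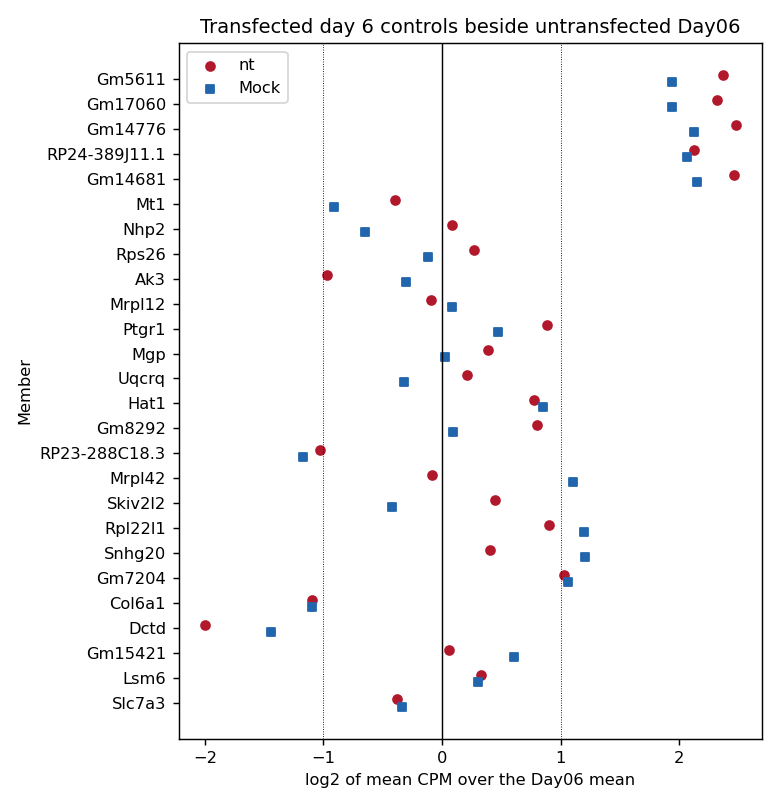
Mean CPM of each gene in nt (circles, 3 libraries) and Mock (squares, 5 libraries) over the mean of the 3 Day06 libraries, as log2 ratios on the horizontal axis, with dotted lines at 2-fold. The 4 Npm1 copies and RP24-389J11.1 lie to the right of the upper dotted line, at 3.84 to 5.58 times Day06, and most other genes lie between the lines.

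The 4 copies and Npm1 did not keep a constant ratio. Summed copies over Npm1 gave 1.35, 1.14 and 1.17 in the Day06 libraries, 2.92, 2.82 and 2.03 in nt, and 1.67 to 2.47 in Mock. The nt and Mock libraries all lay above the Day06 libraries. In siPou5f1 the ratio was 0.154, 1.34 and 0.926 in replicates 1 to 3. The siPou5f1 library of replicate 1 held 880 CPM of the copies and 5728 CPM of Npm1, and stood apart from the other 2, which held 6553 and 5807 CPM of the copies. Over the 33 siRNAs the mean ratio was lowest in siPou5f1, at 0.805 ± 0.600 (n = 3), followed by siPhf1 at 1.04, and highest in siHdac1 at 2.81, with a median of 1.88, and 32 of the 33 were below nt.

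**Figure D3:**
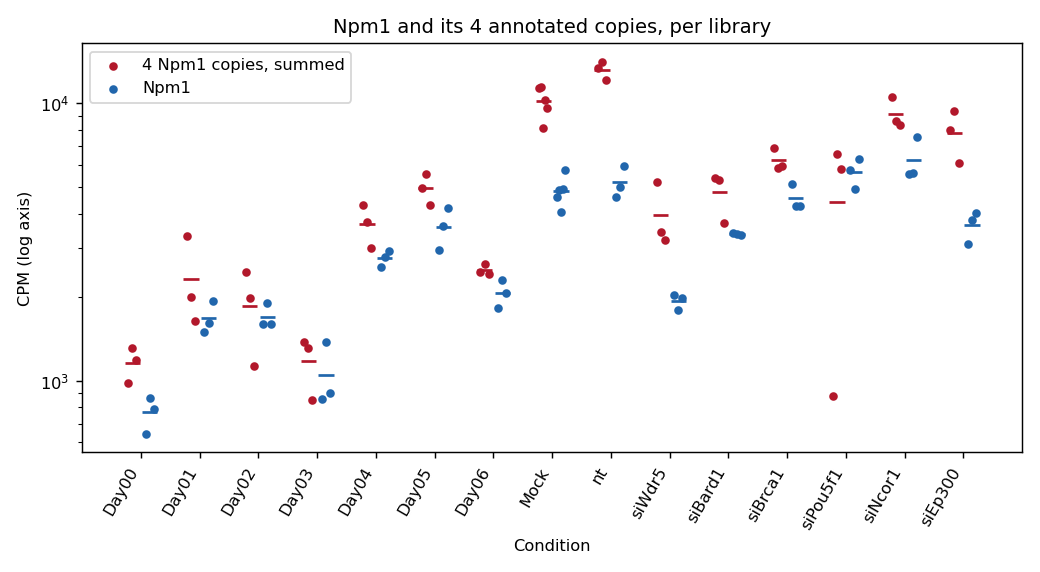
CPM on a log axis of the 4 summed Npm1 copies (red) and of Npm1 (blue) in each library (points), with the mean as a bar, for 15 conditions. Copies are far above Npm1 in nt and Mock and near it on Day06, and the siPou5f1 library of replicate 1, at 880 CPM of copies, lies below the copies of every other day 6 library drawn.

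Each siRNA was compared with nt by edgeR's quasi-likelihood test, with p-values adjusted by Benjamini-Hochberg over 3013 genes and a threshold of 0.05. All 26 genes passed the filter on low counts. The comparisons share the 3 nt libraries and are therefore not independent of each other. They ask whether the genes gained late in the time course were altered when a regulator was targeted.

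In siWdr5, where the target is a scaffold of histone H3 lysine methyltransferase complexes, 12 of the 26 genes were lower, where 15.1% of all genes tested were, and 1 was higher, where 12.2% were. The median log2 fold change was -0.92 over the 26 genes and 0.00 over all genes tested. The lower genes comprised the 4 Npm1 copies, RP24-389J11.1, Ptgr1, Hat1, Nhp2, Rps26, Mrpl12, Uqcrq and Gm8292. Scaling by RLE, another way to correct library totals, in place of TMM within edgeR raised the log2 fold changes of all genes in siWdr5 by a median of 0.17. It left 10 of the 26 lower and 1 higher, and moved the share of lower among all calls from 55.3% to 39.1%.

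Gm5611 had 1482, 1151 and 911 CPM in the siWdr5 libraries against 4208, 5054 and 3849 CPM in nt. Every siWdr5 library lay below every nt library. The log2 fold change was -1.98 ± 0.20 (SE) with an edgeR adjusted p of 2.7e-17. Changes of Gm17060 (-1.96), Gm14776 (-1.90), RP24-389J11.1 (-1.41) and Gm14681 (-1.39) were of the same direction, with the highest edgeR adjusted p being 9.1e-09. Npm1 also fell by 1.49 on the log2 scale (edgeR adjusted p 4.4e-18), and the sum of Npm1 and its copies fell by 1.72 (edgeR adjusted p 5.3e-21). The 5 genes of highest level together held 4788 ± 1352 CPM in siWdr5, 5604 ± 1143 in siBard1 and 7745 ± 678 in siBrca1 (n = 3 each). Each mean lay above the 2983 ± 59.3 CPM of untransfected Day06, compared without a test. The other 21 genes held 2281 ± 121, 3085 ± 559 and 3654 ± 407 CPM, against 3412 ± 233 CPM on Day06.

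Ptgr1 had 89.8, 75.9 and 59.0 CPM in siWdr5 against 240, 275 and 440 CPM in nt, a log2 fold change of -2.23 ± 0.37 with an edgeR adjusted p of 3.0e-07. Hat1 had 56.1, 75.9 and 59.0 CPM against 280, 200 and 238 CPM, a log2 fold change of -1.97 ± 0.38 with an edgeR adjusted p of 1.1e-05. For both genes every siWdr5 library was below every nt library.

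Nhp2 had 180, 266 and 135 CPM in siWdr5 against 360, 324 and 433 CPM in nt, a log2 fold change of -1.07 ± 0.28 with an edgeR adjusted p of 0.0018. Rps26 had 146, 75.9 and 152 CPM against 253, 187 and 349 CPM, a log2 fold change of -1.14 ± 0.32 with an edgeR adjusted p of 0.0036. Mrpl12 had 67.4, 126 and 84.3 CPM against 213, 162 and 189 CPM, a log2 fold change of -1.11 ± 0.36 with an edgeR adjusted p of 0.013. These groups also did not overlap between siWdr5 and nt. Without replicate 3 none of Nhp2 (-0.65, edgeR adjusted p 0.20), Rps26 (-0.97, 0.12) and Mrpl12 (-0.98, 0.15) passed the threshold, and 7 of the 26 genes were then called in all. Mrpl12 also missed it without replicate 1 (-0.89, edgeR adjusted p 0.13).

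Uqcrq had 101, 63.2 and 126 CPM in siWdr5 against 133, 200 and 217 CPM in nt, and fell by 0.97 on the log2 scale (SE 0.36, edgeR adjusted p 0.033). Gm8292 had 123, 50.6 and 185 CPM against 160, 162 and 328 CPM, and fell by 0.90 (SE 0.33, edgeR adjusted p 0.030), with overlapping groups. Both calls were kept in 1 of 10 alternative analyses, that without replicate 1. The gene higher in siWdr5 was Col6a1, with 89.8, 177 and 110 CPM against 79.9, 37.4 and 27.9 CPM in nt, a log2 fold change of 1.36 ± 0.51 with an edgeR adjusted p of 0.033. Without replicate 2, whose siWdr5 library held the 177 CPM, it was 0.93 with an edgeR adjusted p of 0.34. Summed fibroblast markers were 4165 to 4966 CPM in siWdr5 and 1593 to 2264 CPM in nt. The 8 summed epithelium markers, of which none was at 0 over all libraries used, were 22.5 to 50.6 CPM in siWdr5 and 87.4 to 120 CPM in nt, and the summed neuron markers were 337 to 464 CPM and 250 to 333 CPM. None of these 3 lists overlapped between siWdr5 and nt, and their part in these differences was not tested.

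The genes of siWdr5 that did not pass the threshold were of either sign. Mt1 had 333 ± 18.1 CPM against 439 ± 107 CPM in nt, Rpl22l1 81.9 ± 38.7 against 142 ± 113 CPM, and Snhg20 98.3 ± 37.9 against 164 ± 31.2 CPM (n = 3 each). Mgp had 170 ± 51.9 CPM against 177 ± 66.0 CPM, Ak3 205 ± 21.7 against 140 ± 37.1 CPM, and Dctd 59.0 ± 36.8 against 28.3 ± 8.37 CPM (n = 3 each). The metallothionein Mt2, a paralogue of Mt1 outside the 26 genes, fell by 1.18 on the log2 scale (SE 0.20, edgeR adjusted p 4.8e-07). Prdx1 with Gm7204 fell by 1.35 and Rps24 with Gm8292 by 0.91 on the log2 scale, both past the edgeR threshold.

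**Figure D4:**
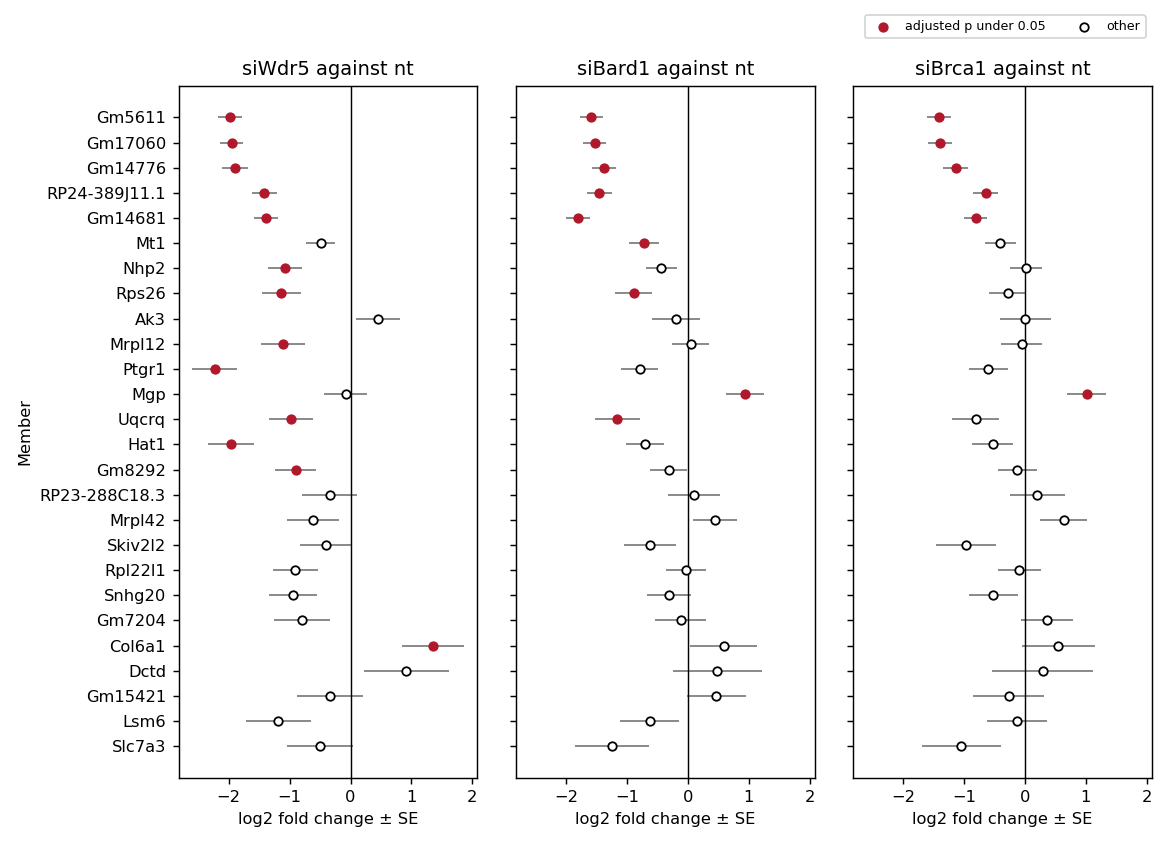
Log2 fold change against nt with its SE (horizontal axis) for each of the 26 genes (rows) in siWdr5, siBard1 and siBrca1, with 3 libraries per condition; filled points passed an edgeR adjusted p of 0.05. The Npm1 copies and RP24-389J11.1 are filled and left of 0 in all 3 panels, and Ptgr1 and Hat1, at -2.23 and -1.97, are filled in the siWdr5 panel.

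In siBard1 and siBrca1, whose targets form a ubiquitin ligase of DNA repair, the 4 Npm1 copies and RP24-389J11.1 were called in each. In siBard1 8 of 26 were lower, where 4.78% of all genes tested were, and 1 was higher, where 5.54% were, with a median log2 fold change of -0.53. In siBrca1 5 were lower, where 1.73% of all genes were, and 1 was higher, where 2.49% were, with a median of -0.28. Medians over all genes tested were -0.02 and -0.0035. In both comparisons the lower genes included the 4 Npm1 copies and RP24-389J11.1, and the higher gene was Mgp.

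Gm5611 had 1786, 1773 and 1124 CPM in siBard1 and 2083, 1660 and 1675 CPM in siBrca1, all below the nt libraries at 3849 to 5054 CPM. Its log2 fold changes were -1.58 ± 0.19 (edgeR adjusted p 7.5e-12) and -1.42 ± 0.20 (edgeR adjusted p 9.0e-09). Gm14681 fell by 1.80 on the log2 scale in siBard1 and by 0.81 in siBrca1. Npm1 fell by 0.68 in siBard1 (edgeR adjusted p 0.00013), while in siBrca1 its log2 fold change was -0.34 with an edgeR adjusted p of 0.17. The sum of Npm1 and its copies fell by 1.27 and by 0.93, with edgeR adjusted p-values of 3.1e-12 and 8.4e-07. In siBrca1 RP24-389J11.1 and Gm14681 lost their calls without replicate 2 and without replicate 3, with edgeR adjusted p-values of 0.053 to 0.34, and 3 of the 26 genes were called without replicate 3.

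Mgp had 272, 264 and 510 CPM in siBard1 and 244, 273 and 613 CPM in siBrca1, against 107, 237 and 189 CPM in nt. All of these libraries lay above all nt libraries. The log2 fold changes were 0.94 ± 0.31 (edgeR adjusted p 0.031) and 1.01 ± 0.32 (edgeR adjusted p 0.048). The highest library of each was that of replicate 3, and without replicate 3 the changes were 0.59 and 0.43 with edgeR adjusted p-values of 0.50 and 0.79. Without replicate 1 they were 0.85 and 1.00 with edgeR adjusted p-values of 0.12 and 0.13. Summed fibroblast markers were 2609 to 3002 CPM in siBard1, 2080 to 3246 CPM in siBrca1 and 1593 to 2264 CPM in nt. Summed epithelium markers were 0 to 58.6 CPM in siBard1, 0 to 105 CPM in siBrca1 and 87.4 to 120 CPM in nt, and did not overlap between siBard1 and nt. Summed markers of skeletal muscle, with 4 counts in siBrca1 and 1 in nt, were 10.9 to 37.5 CPM and 0 to 6.99 CPM. The part of these markers in the differences was not tested.

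In siBard1 the other lower genes were Mt1, Rps26 and Uqcrq. Uqcrq had 90.6, 87.9 and 91.5 CPM against 133, 200 and 217 CPM in nt and fell by 1.16 on the log2 scale (SE 0.37, edgeR adjusted p 0.025). Mt1 fell by 0.71 (SE 0.25, edgeR adjusted p 0.043) and Rps26 by 0.89 (SE 0.31, edgeR adjusted p 0.041). These 3 calls rested on the setting, since 5 of the 26 genes were called without replicate 3, with DESeq2, with limma or without the replicate as a block, and none of the 3 was among them. Ptgr1 and Hat1 had 198 ± 70.4 and 158 ± 58.5 CPM in siBard1 and 237 ± 91.4 and 183 ± 20.4 CPM in siBrca1 (n = 3 each), against 318 ± 107 and 239 ± 40.0 CPM in nt, and did not pass the threshold.

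In siPou5f1, which targets a factor of the cassette, 6 of 26 were lower, where 2.19% of all genes tested were, and 2 were higher, where 3.58% were, with medians of 0.03 over the 26 genes and -0.03 over all genes. The lower genes were the 4 Npm1 copies, RP24-389J11.1 and Mt1. Gm5611 had 236, 2001 and 1704 CPM, a log2 fold change of -1.57 ± 0.20 with an edgeR adjusted p of 1.5e-10. Without replicate 1, whose siPou5f1 library stood apart, it was -1.16 with an edgeR adjusted p of 6.6e-07, and Gm14681 lost its call (-0.61, edgeR adjusted p 0.070). Npm1 in siPou5f1 had a log2 fold change of 0.12 with an edgeR adjusted p of 0.73, while its sum with the copies fell by 0.83 (edgeR adjusted p 1.0e-05). Summed fibroblast markers were 746 to 1137 CPM in siPou5f1, below the 1593 to 2264 CPM in nt, and their part was not tested.

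Mrpl42 had 429, 353 and 373 CPM in siPou5f1 against 93.2, 74.9 and 126 CPM in nt, a log2 fold change of 1.90 ± 0.33 with an edgeR adjusted p of 2.4e-06. Mrpl12 had 386, 314 and 365 CPM against 213, 162 and 189 CPM, a log2 fold change of 0.94 ± 0.29 with an edgeR adjusted p of 0.030. For both genes every siPou5f1 library lay above every nt library. The call of Mrpl12 was lost without any of the 3 replicates, with edgeR adjusted p-values of 0.073 to 0.37. Mt1 fell by 0.83 on the log2 scale (SE 0.27, edgeR adjusted p 0.046), and its call was lost without replicate 2 (edgeR adjusted p 0.18) and without replicate 3 (edgeR adjusted p 0.48).

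The same 2 genes of the mitochondrial ribosome were the higher ones in siNcor1, where the target is a co-repressor of transcription. None of the 26 was lower by edgeR, where 1.03% of all genes tested were, and 2 had an unadjusted p under 0.05 in that direction, while 2 were higher, where 3.42% were. DESeq2 and limma likewise called 0 lower, whereas edgeR without the low-count filter did call a lower gene. The fit of the 2 conditions alone called more of the 26 genes. Mrpl42 had 282, 206 and 334 CPM, a log2 fold change of 1.61 ± 0.33 with an edgeR adjusted p of 0.00028. Mrpl12 had 253, 292 and 386 CPM, a log2 fold change of 0.92 ± 0.29 with an edgeR adjusted p of 0.039. Without replicate 3 neither passed, with edgeR adjusted p-values of 0.059 and 0.60, and without replicate 2 Mrpl12 did not, with 0.16. In siNcor1 Rpl22l1 with Gm15421 rose by 1.02 on the log2 scale (SE 0.28, edgeR adjusted p 0.012).

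Among the day 6 controls Mrpl42 had 82.9 to 136 CPM in the untransfected Day06 libraries and 74.9 to 126 CPM in nt, which overlapped. In Mock it had 201 to 236 CPM over the 5 libraries, above all libraries of both, a log2 fold change against nt of 1.21 ± 0.34 with an edgeR adjusted p of 0.038. With the Mock columns of a replicate summed, an alternative chosen after seeing the data, it was 1.22 with an edgeR adjusted p of 0.048 (3 libraries in each group). Mrpl42 was the sole gene of the 26 called in Mock against nt, where 1.03% of all genes tested were higher, and it lost the call without any of the 3 replicates, with edgeR adjusted p-values of 0.14 to 0.30. None was lower by edgeR, where 0.531% of all genes were, with 4 of the 26 at an unadjusted p under 0.05, and DESeq2 and limma also called 0 lower. Without the low-count filter, however, edgeR called a gene lower and did not call Mrpl42. The median log2 fold change in Mock was 0.00 over the 26 genes and 0.01 over all genes. With RLE scaling in edgeR the share of lower among all calls in Mock was 22% in place of 34.0%.

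In siEp300, where the target is a histone acetyltransferase, 4 of 26 were lower, where 2.66% of all genes tested were, and 1 was higher, where 3.02% were, with medians of -0.49 over the 26 genes and -0.02 over all genes. RLE scaling in edgeR moved the share of lower among all calls from 46.8% to 31.0%. Gm14681 had 795 to 1232 CPM against 2246 to 2583 CPM in nt and fell by 1.43 on the log2 scale (edgeR adjusted p 6.8e-10), while Gm5611 fell by 0.85, Gm17060 by 0.79 and Gm14776 by 0.63. The sum of Npm1 and its copies fell by 0.77 (edgeR adjusted p 7.2e-05). The higher gene was again Mgp, with 99.5, 243 and 718 CPM, a log2 fold change of 1.00 ± 0.30 with an edgeR adjusted p of 0.022. It rested on the library of replicate 3, without which the change was -0.075 with an edgeR adjusted p of 0.96. Without that replicate Gm14681 was the sole gene of the 26 still called. Of 10 alternative analyses, Gm14681 kept its call in 10, Gm5611 and Gm17060 in 7 each, Mgp in 5 and Gm14776 in 3. Summed fibroblast markers were 2126 to 3359 CPM in siEp300 and 1593 to 2264 CPM in nt, and those of skeletal muscle were 8.50 to 36.4 CPM from 6 counts and 0 to 6.99 CPM from 1 count. Their part was not tested.

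The comparisons of siHat1 and siMtf1 were added because Hat1 is among the 26 genes and Mtf1 encodes the activator of metallothionein genes. Hat1 had 221 ± 80.2 CPM (n = 3) in siHat1 against 239 ± 40.0 CPM (n = 3) in nt, a log2 fold change of -0.09 ± 0.27 with an edgeR adjusted p of 0.98, from 106 counts in siHat1 and 71 in nt. A lowering of Hat1 by its own siRNA on day 6 was not detected. Mtf1 had 0 counts in siMtf1, which allows up to 22.6 CPM, and 3 in nt. Mt1 in siMtf1, with 2 libraries, had a log2 fold change of -0.26 ± 0.29 with an edgeR adjusted p of 0.82, while Mt2 fell by 1.07 (SE 0.25, edgeR adjusted p 0.0094).

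In both siHat1 and siMtf1 4 of the 26 genes were lower, where 0.266% of all genes tested were, and 0 were higher, where 0.133% and 0.166% were. The 4 were the Npm1 copies Gm5611, Gm17060, Gm14776 and Gm14681, with log2 fold changes of -0.76 to -1.12 in siHat1 and -0.83 to -1.22 in siMtf1. The sum of Npm1 and its copies fell by 0.73 in siHat1 (edgeR adjusted p 0.0019) and by 0.95 in siMtf1 (edgeR adjusted p 0.00024). No gene of the 26 was higher by DESeq2 or limma either, with 4 in siHat1 and 0 in siMtf1 at an unadjusted edgeR p under 0.05. All lower calls of the 4 single copies were lost with limma and without the replicate as a block, where 0 of the 26 genes were called in either comparison. Without replicate 3, siHat1 had 2 of the 26 genes called, without replicate 1, siMtf1 had 2, and without replicate 2, siMtf1 had 0. With RLE scaling in edgeR the share of lower among all calls was 54.5% in place of 66.7% in siHat1 and 50% in place of 61.5% in siMtf1.

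The 33 siRNAs share the 3 nt libraries, so a high nt group would by itself place a gene below nt in many of them, and this was not tested. The Npm1 copies and RP24-389J11.1 were also lower in Mock than in nt in summed level, at 12064 against 15274 CPM. Mean CPM was below the nt mean in 33 of 33 siRNAs for Gm5611, Gm17060 and Gm14776, and in 32 of 33 for Gm14681 and RP24-389J11.1, where 1.26% of the genes tested were below nt in all 33 and 3.68% in at least 32. In edgeR Gm5611 and Gm17060 were lower in 24, Gm14681 in 20, Gm14776 in 18 and RP24-389J11.1 in 9, and none was higher in any. The share of all genes tested called lower in a siRNA ranged from 0.0664% to 15.1% with a median of 0.597%, and that called higher from 0% to 12.2% with a median of 0.398%. At least 1 of the 26 genes was called in 26 siRNAs, and in 11 of these all calls were of Npm1 copies and RP24-389J11.1. In siMyc, against a factor of the cassette, edgeR called none of the 26, where 0.166% of all genes tested were lower and 0.133% higher. Npm1 had 4747 ± 221 CPM in siMyc and 5183 ± 710 CPM in nt (n = 3 each), and whether Myc was lowered was not examined. By mean CPM siWdr5 was lowest for Gm5611, at 1181 ± 287 CPM (n = 3), and siPou5f1 next, at 1314 ± 945 CPM (n = 3), and these neighbours overlapped.

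Among the other genes Mrpl42 was above nt in mean CPM in 32 of 33 siRNAs, the exception being siWdr5, where 2.06% of the genes tested were above nt in at least 32, and was higher by edgeR in 6. Skiv2l2 was below the nt mean in 33 of 33 and called in none. Ptgr1 was lower in 4 siRNAs, siWdr5, siEny2, sip53 and siPrkdc, while Hat1 and Nhp2 were called lower in siWdr5 and in no other siRNA, though the difference between siRNAs was not tested. No siRNA gave a call for Ak3, RP23-288C18.3, Skiv2l2, Rpl22l1, Gm7204, Dctd, Gm15421, Lsm6 or Slc7a3. The siWdr5 mean was the lowest of the 33 for 9 genes and among the lowest 3 for 16, with a median rank of 2 from the bottom, against 10.5 for siBard1. Over all genes tested the siWdr5 mean was the lowest for 11.4% and among the lowest 3 for 20.4%, with a median rank of 21. For Hat1 it was 63.7 ± 10.7 CPM (n = 3), and the next lowest were siPrmt5 and siEp300, each at 152 CPM.

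**Figure D5:**
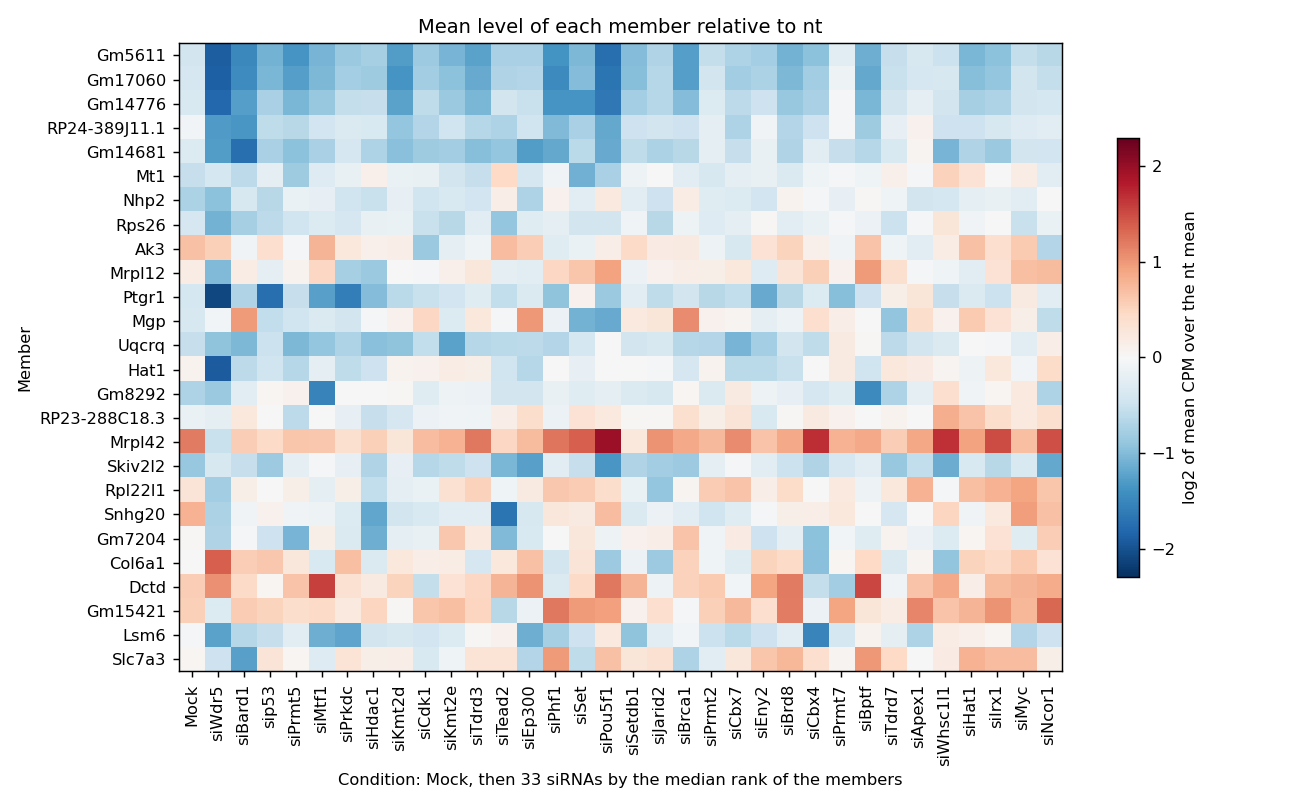
Log2 of the mean CPM of each of the 26 genes (rows) over its nt mean (colour) in Mock and in the 33 siRNAs (columns), with siRNAs ordered by the median rank of the genes; blue is below nt and red above. The Npm1 copies are blue in nearly all columns, Mrpl42 is red in all but siWdr5, and siWdr5, the column after Mock, is blue for most rows.

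Mt1 and Slc7a3 belong to the gene lists of antioxidant metabolism and of the amino acid response. Of 21 genes of cystine, glutathione and antioxidant metabolism, 18 were tested, and in siWdr5 1 was higher, the ferritin gene Fth1, and 2 were lower, Mt2 and Prdx1, counts near or below the shares of all genes given for siWdr5 (12.2% higher and 15.1% lower). In siBard1 1 was higher, Fth1, and 2 were lower, Mt1 and Mt2, where 5.54% of all genes were higher and 4.78% lower. In siBrca1 Fth1 was higher and none was lower, where 2.49% of all genes were higher and 1.73% lower. In siPou5f1 none was higher and 2 were lower, Mt1 and the ferritin gene Ftl1, where 2.19% of all genes were lower, whereas in siEp300 2 were higher, Fth1 and Ftl1, and none was lower, where 3.02% of all genes were higher. In siMtf1 Mt2 was lower, where 0.266% of all genes were, and in siNcor1, Mock and siHat1 edgeR, DESeq2 and limma called none of the list, with 2, 3 and 0 genes at an unadjusted edgeR p under 0.05. In the directions given as none for siBrca1, siPou5f1 and siEp300, 0 genes were at an unadjusted edgeR p under 0.05, and DESeq2 and limma also called 0. The lower genes in siBard1 were called by neither DESeq2 nor limma, and limma called 0 of the list in siBrca1 and siMtf1. Of 20 genes of the ATF4 and amino acid response, 10 were tested, and 2, Cth and Nupr1, were lower in siWdr5, where 15.1% of all genes were. In siPou5f1 1, Cth, was higher, where 3.58% of all genes were, while limma called 0 of this list in siWdr5 and siPou5f1. In siBard1, siBrca1, siNcor1, siEp300, Mock, siHat1 and siMtf1 edgeR, DESeq2 and limma called none of it, with 0 to 2 genes in each at an unadjusted edgeR p under 0.05. Slc7a3 had 53.4 ± 12.8 CPM in siWdr5, 31.4 ± 6.59 in siBard1 and 45.3 ± 47.0 in siBrca1 against 74.4 ± 16.4 CPM in nt (n = 3 each), and passed the threshold in none of them.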

How the data were processed

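Bulk RNA of reprogramming mouse embryonic fibroblasts was measured by CEL-Seq2, with 3 sequenced pools as samples and 129 barcoded libraries whose condition was read from column names. The deposited counts are unnormalized: the authors aligned to the mm10 genome (Bowtie2) and counted molecules per GENCODE vM13 gene, with UMI correction, in the CEL-Seq2 pipeline. A deposited table of normalized log2 values was not used here. Columns of other series numbered 0. Libraries under 10000 counts were left out. Levels are counts over all counts of a library, in CPM.

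Tests used edgeR 4.0.16 in R 4.3.3, with TMM, filterByExpr by condition and a model of condition plus replicate over 127 libraries (83 residual degrees of freedom, common dispersion 0.0158), and were tested on simulated data. The replicate is the sequenced pool, and deviations from condition means correlated at a median of 0.098 within and -0.068 between numbers, so it was kept as a block. SEs come from the test statistic. Alternatives used DESeq2 1.42.0 and limma 3.58.1 (prior count 2). Copies were searched with BLAST 2.17.0 in GENCODE vM21. The members and gene lists were chosen with earlier results of these data known, and with at most 40 members all were to be named. The siHat1 and siMtf1 comparisons, the copy sums and the summing of Mock columns within a replicate were added after seeing the data.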

Additional observations from a re-analysis of the deposited data

Results flagged for a closer look

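Of 26 groups of the 5 Mock libraries, columns of 3 replicates, examined, 1 per gene, 1 held a library far from the others. Hat1 had 382 CPM in a Mock library of replicate 1, where the median of the 5 Mock libraries was 221 CPM, and the gap to the next library was 0.887 of the range. Chance marks about 1 in 20 such groups, and the cause was not tested.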

How the results depend on the processing

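Of 52 calls of single genes, 21 were kept under every alternative run, and of 518 values under alternatives 371 kept direction and side of the threshold, 146 kept direction and missed the threshold, and 1 reversed, Mgp in siEp300 without replicate 3 (-0.075, where leaving out a replicate gave -0.075 to 1.40). The 21 kept calls include Gm5611, Gm17060 and Gm14776 in siWdr5, siBard1, siBrca1 and siPou5f1, and Hat1 and Ptgr1 in siWdr5. Counts of called genes that moved by over 1.5 times follow, and their cause was not tested.

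Without the low-count filter the count was 8 in siWdr5 (13 in the analysis reported), 5 in siBard1 (9), 3 in siEp300 (5) and 18 over siWdr5, siBard1 and siBrca1 together (28). In siNcor1 it gave 1 lower and 1 higher gene, and in Mock 1 lower and 0 higher. With DESeq2 it was 5 in siBard1 and 3 in siEp300. With limma it was 5 in siBard1, 1 in siNcor1 (2), 1 in siEp300, and 0 in siHat1 (4) and siMtf1 (4). Without the replicate block it was 5 in siBard1, 3 in siBrca1 (6), 1 in siNcor1, 1 in siEp300, and 0 in Mock (1), siHat1 and siMtf1. With the 2 conditions alone it was 6 in siNcor1 and 2 in siMtf1, and with nt and Mock together as control 8 in siEp300. With copies added to their gene it was 2 in siBrca1, 5 in siPou5f1 (8) and 3 in siEp300.

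Leaving out each replicate gave 7 to 13 genes in siWdr5, 5 to 7 in siBard1, 3 to 5 in siBrca1, 6 to 7 in siPou5f1, 0 to 3 in siNcor1, 1 to 5 in siEp300, 0 in Mock, 2 to 4 in siHat1, 0 to 3 in siMtf1 and 15 to 23 over siWdr5, siBard1 and siBrca1 together. In siMtf1, leaving out replicate 1 or 2 leaves 1 library, assumed to vary like the other groups.

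The rule itself gave 26 genes, 61 with TMM-scaled totals, 71 with a level limit of 40 CPM, 12 with 160 CPM, 24 with means over single libraries, and 33 to 37 without a replicate, of which 8 to 20 were among the 26. Depth limits low genes most: Dctd rested on 6 counts on Day00.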
